A study of Mus musculus with 10 samples.

Results

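The Fos and Jun family holds the genes whose proteins form the transcription factor AP-1. Its 7 members are the Fos genes Fos, Fosb, Fosl1 and Fosl2 and the Jun genes Jun, Junb and Jund, and they were taken by gene symbol from the 19938 genes of the array that had a transcript cluster with a single symbol. Each of the 7 members had 1 transcript cluster, so none had to be chosen among several, and no other gene symbol shared it.

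FOS and JUN proteins dimerise through leucine zippers, and the dimer binds AP-1 sites in promoters and enhancers. JUN proteins also pair with each other, whereas FOS proteins need a partner. In the hippocampus Fos, Fosb and Junb are immediate early genes whose transcription follows neuronal activity through calcium, MAP kinase and cAMP signalling, and a stable splice product of Fosb builds up with repeated activity. Jund is transcribed more constantly.

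Expression was measured in the whole hippocampus, both sides together, of male mice aged 16 weeks, on Affymetrix gene arrays. Values are on the log2 scale after RMA, the robust multi-array average. The 5 Tg(Dyrk1a) mice carried an additional copy of Dyrk1a on a bacterial artificial chromosome, and the 5 wild-type mice were their littermates. The labels give both groups a C57BL/6N background, whereas the study's methods name C57BL/6J for this line. Each mouse gave 1 array, and the arrays of a genotype are labelled as biological replicates. DYRK1A is a kinase encoded in the Down syndrome region, and the comparison asks how hippocampal transcripts stand when this gene alone is in excess.

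The labels held for the transgene. In the brighter of its 2 transcript clusters Dyrk1a stood 1.38-fold higher in Tg(Dyrk1a), and the genotypes did not overlap. The other cluster is not reported here. Array medians ran from 6.57 to 6.66 and any pair of arrays correlated at 0.996 or more. Over the 10 arrays the neuronal genes Snap25 and Rbfox3 ranged by 1.06-fold each, Slc17a7, a transporter gene of glutamatergic neurons, by 1.14-fold and Prox1, a granule cell gene, by 1.38-fold. Markers of the choroid plexus, a secretory tissue that lies against the hippocampus, varied widely. Their score, the mean deviation of 13 markers from their own means, was 1.20 in Tg(Dyrk1a) replicate 2, 0.87 in Tg(Dyrk1a) replicate 4 and 1.16 in wild type replicate 5, and between -0.72 and 0.02 in the other 7 mice. The fold changes of the members, and the correlations named between members and of Fos with other activity-induced genes, are therefore also given without these 3 mice.

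The promoters of 4 members are shown because Fosb and Fosl2 moved together across mice while Fos and Jun, the founding members, did not follow them closely. The RefSeq table of GRCm38.p6 held a promoter for 6 members, Fosl1 being the exception. Each run gives the 250 bases before the transcript start, 5′ to 3′ on the gene's strand; for Fosb, 73 of these lie inside the longest gene model and only the 177 outside it are printed. Capitals mark the core of the cAMP response element (TGACG), the TATA box (TATAAA), the CCAAT box and the wider AP-1 type of site (TGACNTCA).
Fos, chr12:85473640-85473889, plus strand: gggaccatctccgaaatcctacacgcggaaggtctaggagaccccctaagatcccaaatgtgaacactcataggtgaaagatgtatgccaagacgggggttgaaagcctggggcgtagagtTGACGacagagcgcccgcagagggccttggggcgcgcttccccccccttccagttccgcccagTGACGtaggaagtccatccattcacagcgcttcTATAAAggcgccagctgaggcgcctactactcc
Fosb, chr7:19310119-19310295, minus strand: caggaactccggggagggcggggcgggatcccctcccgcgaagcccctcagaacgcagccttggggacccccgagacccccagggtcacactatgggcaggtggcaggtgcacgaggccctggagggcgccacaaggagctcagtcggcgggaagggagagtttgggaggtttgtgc
Fosl2, chr5:32136222-32136471, plus strand: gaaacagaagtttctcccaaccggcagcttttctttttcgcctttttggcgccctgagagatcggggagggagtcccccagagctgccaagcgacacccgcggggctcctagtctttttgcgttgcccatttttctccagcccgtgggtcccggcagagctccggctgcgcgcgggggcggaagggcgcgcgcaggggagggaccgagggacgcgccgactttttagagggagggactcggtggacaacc
Jun, chr4:95052223-95052472, minus strand: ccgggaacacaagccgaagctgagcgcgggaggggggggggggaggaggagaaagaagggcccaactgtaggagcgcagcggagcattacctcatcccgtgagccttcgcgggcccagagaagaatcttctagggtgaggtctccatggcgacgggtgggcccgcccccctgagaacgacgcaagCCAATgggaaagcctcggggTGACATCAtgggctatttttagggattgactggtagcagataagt

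Both strands were searched over the whole 250 bases. The core TGACG lay 129 and 66 bases before the Fos start, 60 bases before the Fosb start, in the stretch not printed, and 106 bases before the Junb start. It was present in 17.8% of all 32851 RefSeq promoters. TATAAA was found 33 bases before the Fos start (12.4% of promoters). Jun held TGACNTCA, an AP-1 or cAMP response type of site, 45 bases before its start (7.49% of promoters), and CCAAT 65 bases before it, as Junb did 36 bases before its start (33.8%). The full cAMP response element (TGACGTCA, in 1.55%), the classical AP-1 site (TGACTCA, in 4.46%) and the CArG box (1.47%), which binds serum response factor, had no match in these windows of the 6 members, and Fosl2 and Jund matched none of the motifs. The full element contains the core and is also a case of the wider site. Sites more than 250 bases before a start were not searched, so an absent match does not mean that the gene lacks the motif.

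By limma, with adjustment across every annotated transcript cluster, none of the 7 members passed (adjusted p at least 0.947), where 0.00854% of 23410 transcript clusters passed. The 4 Fos genes had lower means in Tg(Dyrk1a), as did Junb, and Jun and Jund had higher ones. The median log2 fold change of the 7 was -0.03, beside 0.00199 over all genes. Fosb, ranked 110 of 23410 by p, was the 1 member with an unadjusted limma p under 0.05. In that direction 1.94% of all transcript clusters had such a p. The genotypes overlapped for all 7 members, and for all but 0.807% of the transcript clusters tested.

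Fosb encodes a FOS protein whose short splice form is long-lived, and it had the lowest log2 fold change of the family. It stood at 8.24, 8.02, 8.21, 8.07 and 8.11 in Tg(Dyrk1a) replicates 1 to 5. In wild type it stood at 8.30, 8.27, 8.18, 8.35 and 8.41. All 5 Tg(Dyrk1a) mice lay below the wild-type mean, and 4 of 5 wild-type mice lay above every Tg(Dyrk1a) mouse, with wild type replicate 3 as the overlap. The means were 8.13 ± 0.09 and 8.30 ± 0.09 (SD, n = 5 each). This gave a log2 fold change of -0.17 ± 0.05 (SE); as a fold it was 0.888 (95% interval 0.822 to 0.960). The limma p was 0.0060 before and 0.947 after adjustment, and the exact permutation p was 0.0238 (two-sided, 5 against 5). Leaving out the 3 mice high in choroid plexus markers brought the difference to -0.09 ± 0.05 (SE) with an unadjusted limma p of 0.111. These mice also had the lowest, next lowest and highest Fosb values. Losing these end values and losing choroid plexus content cannot be told apart here. Over the 10 mice Fosb was at r = -0.16 with the choroid plexus score (permutation p = 0.661, adjusted over 42 relations 0.782). The part of choroid plexus content in the difference was not tested. With the scores of choroid plexus, meninges and thalamus as covariates it was -0.16 ± 0.08 (SE), with an unadjusted limma p of 0.0680.

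Fosl2 encodes FRA2, a FOS-related protein without the strong activation domain of FOS. Its values were 8.84, 8.67, 8.91, 8.75 and 8.77 in Tg(Dyrk1a) and 8.997, 8.85, 8.72, 8.95 and 9.03 in wild type, in replicate order. Here 3 wild-type mice lay above every Tg(Dyrk1a) mouse, while wild type replicate 3 was below all but 1 of them. The means were 8.79 ± 0.09 and 8.91 ± 0.12 (SD, n = 5 each). The difference was -0.12 ± 0.06 on the log2 scale (SE; 0.919-fold, 95% interval 0.838 to 1.01), and the exact permutation p was 0.127. Without the 3 mice high in choroid plexus markers, which included the lowest and the highest Fosl2 value, the difference was -0.04 ± 0.07 (SE).

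Fos, the proto-oncogene used as a marker of recently active neurons, stood at 6.99, 6.89, 7.05, 6.99 and 7.12 in Tg(Dyrk1a). In wild type it stood at 7.05, 6.95, 7.15, 7.15 and 7.17. The lowest mouse was Tg(Dyrk1a) replicate 2 and the highest wild type replicate 5, but wild type replicate 2 lay among the low Tg(Dyrk1a) values. The means were 7.01 ± 0.09 and 7.09 ± 0.09 (SD, n = 5 each). The log2 fold change was -0.09 ± 0.05 (SE; 0.943-fold, 95% interval 0.872 to 1.02), with an exact permutation p of 0.19. It was -0.02 ± 0.06 (SE) without the 3 mice high in choroid plexus markers and -0.06 without Tg(Dyrk1a) replicate 2 alone.

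Fosl1 encodes FRA1, an inducible FOS-related protein. Its transcript cluster was dim, at the 25.6th percentile of mean signal, and did not enter the test without the dimmest 30%. The Tg(Dyrk1a) mice had 5.77, 5.46, 5.60, 5.68 and 5.66, and the wild-type mice 5.78, 5.69, 5.67, 5.61 and 5.54. The genotypes lay across the same range. Its log2 fold change was -0.03 ± 0.06 (SE), 0.983-fold with a 95% interval of 0.900 to 1.07, and its sign turned without Tg(Dyrk1a) replicate 2 (0.02) and without wild type replicate 1 (0.00615).

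**Figure D1:**
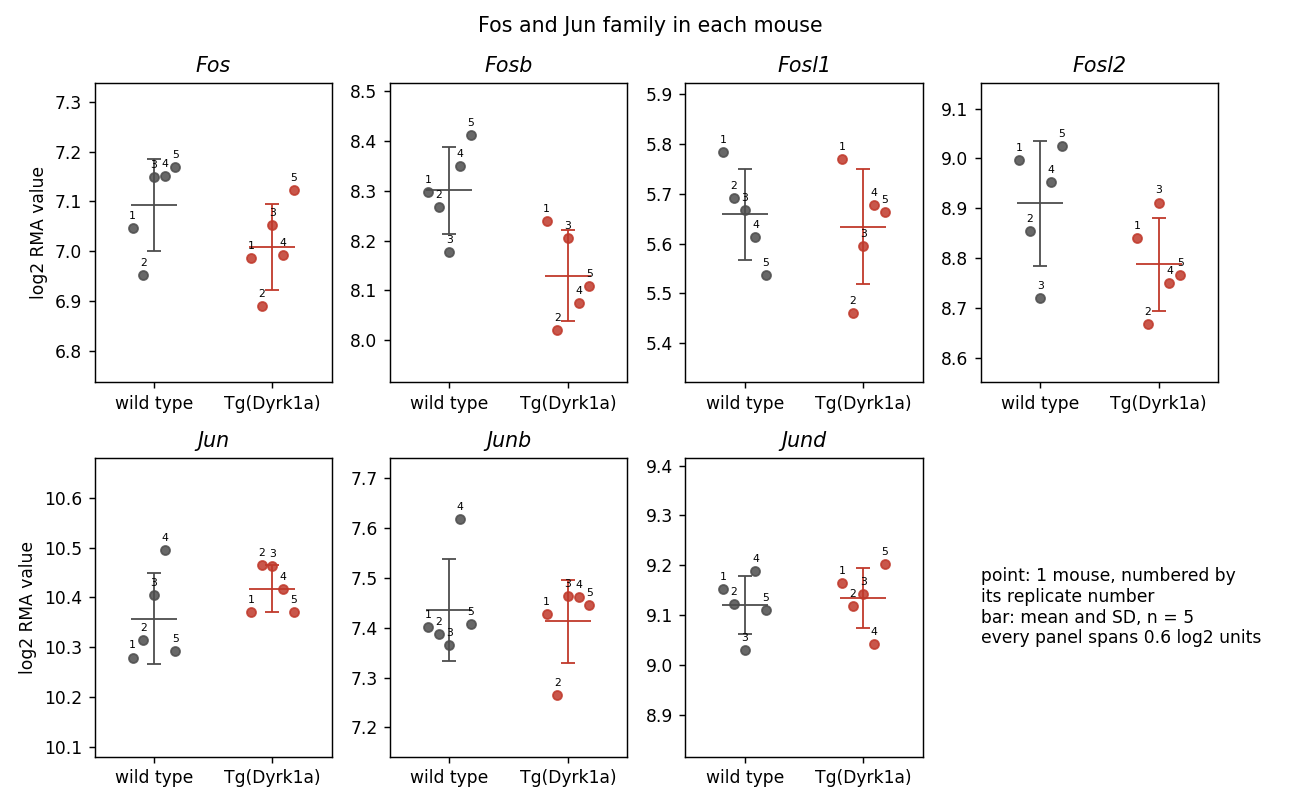
Log2 RMA value (vertical axes, each spanning 0.6 units) of the 7 family members by genotype, 1 numbered hippocampus per point, with the mean and SD of 5 mice. Fosb shows 4 of 5 wild-type mice above every Tg(Dyrk1a) mouse, and the genotypes overlap in all 7 panels.

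Jun, which encodes the main partner of FOS proteins, went the other way. Its values were 10.37, 10.47, 10.46, 10.42 and 10.37 in Tg(Dyrk1a) and 10.28, 10.32, 10.40, 10.49 and 10.29 in wild type. All 5 Tg(Dyrk1a) mice lay above the wild-type mean, but the highest value of all was that of wild type replicate 4. The means were 10.42 ± 0.05 and 10.36 ± 0.09 (SD, n = 5 each). Its log2 fold change was 0.06 ± 0.04 (SE), with a 95% interval of -0.04 to 0.16, and the exact permutation p was 0.214. With the marker scores as covariates it was -0.02 ± 0.07 (SE).

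Junb encodes an activity-induced JUN protein that is a weaker activator than JUN on single sites. It stood at 7.43, 7.26, 7.46, 7.46 and 7.45 in Tg(Dyrk1a) and at 7.40, 7.39, 7.37, 7.62 and 7.41 in wild type. In each genotype 4 mice lay close together and 1 stood apart, Tg(Dyrk1a) replicate 2 on the low side and wild type replicate 4 on the high side. Between genotypes the log2 difference was -0.02 ± 0.05 (SE; 0.984-fold, 95% interval 0.908 to 1.07). Leaving out either of these mice turned the sign, to 0.01 and 0.02.

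Jund encodes the JUN protein with the most constant expression. It stood at 9.16, 9.12, 9.14, 9.04 and 9.20 in Tg(Dyrk1a) and at 9.15, 9.12, 9.03, 9.19 and 9.11 in wild type. The 10 mice spanned 1.13-fold, the narrowest range of the 7 members. Between genotypes it differed by 0.01 ± 0.04 on the log2 scale (SE; 1.01-fold, 95% interval 0.952 to 1.07). The sign turned with the marker scores as covariates (-0.04), and also without wild type replicate 3 (-0.00872) or Tg(Dyrk1a) replicate 5 (-0.00302).

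With FCROS, a ranking of the fold changes of all 25 pairs of a Tg(Dyrk1a) and a wild-type mouse, 2 members were in the outer 0.025 of the f-value on the lower side. These were Fosb (f-value 0.00508) and Fosl2 (0.0122), whereas Fos was at 0.0353. Of all transcript clusters 2.11% were past it on that side. FCROS gives no error over mice. Without the 3 mice high in choroid plexus markers limma put Jun at 0.03, Jund at 0.05, Fosl1 at -0.01 and Junb at 0.00306 on the log2 scale.

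**Figure D2:**
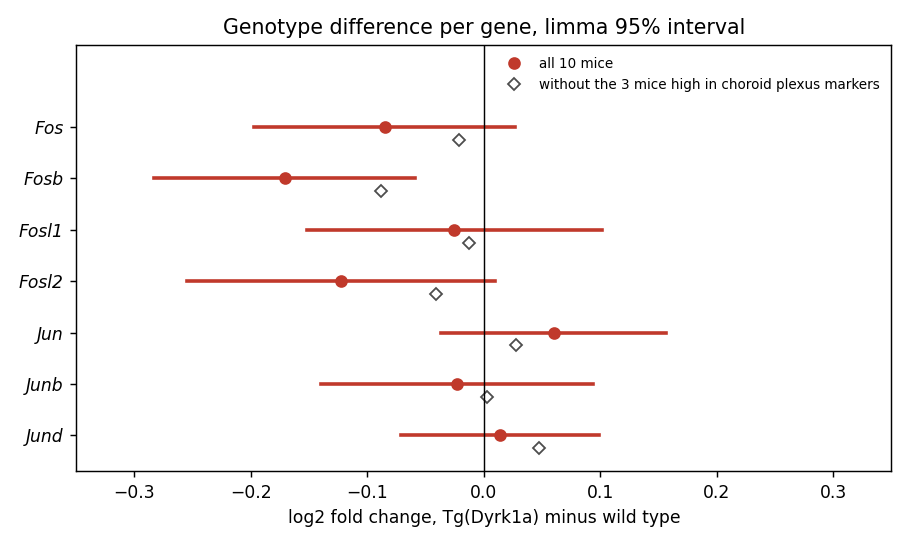
The horizontal axis gives the genotype difference of the 7 members in log2 units, with wild type subtracted from Tg(Dyrk1a), for 5 mice per genotype; filled points and bars are limma estimates with 95% intervals before adjustment, and open diamonds are estimates without the 3 mice high in choroid plexus markers. Only the interval of Fosb lies wholly below 0, and its diamond stands at -0.09.

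These are bulk values, in which fewer cells of a type and less RNA per cell cannot be told apart. Markers of several other tissues or cell types differed in mean between genotypes, but only the vessel score separated them. Higher means in Tg(Dyrk1a) were seen for all 14 meninges, 16 of 18 vessel, 10 of 13 choroid plexus and 8 of 11 microglia markers. All 12 thalamus markers had lower ones, beside 48.3% of all genes. The vessel score ran from 0.02 to 0.09 in Tg(Dyrk1a) and from -0.16 to 0.01 in wild type without overlap, while the meninges score ran from -0.14 to 0.29 and from -0.25 to 0.07. The thalamus score ran from -0.14 to 0.00400 in Tg(Dyrk1a) and from -0.15 to 0.52 in wild type, with wild type replicate 5 at the top. The hippocampal neuron score was between -0.02 and 0.09 in Tg(Dyrk1a) and between -0.06 and 0.04 in wild type. The 7 members were also set against the 6 marker scores over the 10 mice, and none of the 42 relations passed after adjustment (permutation p adjusted over the 42 relations 0.5998 or above for Pearson's r and 0.626 or above for Spearman's rho). Centred on genotype, the vessel score was at r = 0.70 with Fosb, 0.71 with Fosl2 and 0.69 with Jund. The exact permutation p within genotypes was 0.0230, 0.0430 and 0.0294 (adjusted 0.309, 0.334 and 0.309). Before centring, these values were -0.24, -0.00385 and 0.55. Centred Fosl1 was at -0.83 with the meninges, -0.63 with the thalamus and -0.69 with the choroid plexus score. By the same test p was 0.00972, 0.0136 and 0.0477 (adjusted 0.286, 0.286 and 0.334). No centred relation passed after adjustment.

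Across the 10 mice 1 of the 21 pairs of members covaried past the threshold. Fosb and Fosl2 rose and fell together, with a Pearson r of 0.907 (permutation p = 0.00031, adjusted over the 21 pairs 0.00651) and a Spearman rho of 0.915 (permutation p = 0.00039, adjusted 0.00819). The order from Tg(Dyrk1a) replicate 2, lowest in both, to wild type replicate 5, highest in both, was nearly shared. Within each genotype r was 0.91 over 5 mice. With each value centred on its genotype mean r was 0.898 (exact permutation within genotypes, p = 0.00111, adjusted 0.0233), nearly the value before centring. Without the 2 mice farthest from the Fosb median, Tg(Dyrk1a) replicate 2 and wild type replicate 5, r was 0.814. Given the choroid plexus score it was 0.905.

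The call did depend on the mice at the ends. Leaving out 1 mouse at a time gave r from 0.871 to 0.940. The adjusted p rose to 0.0601 without Tg(Dyrk1a) replicate 2 and to 0.0634 without wild type replicate 5 (exact permutation, 9 mice). Without the 3 mice high in choroid plexus markers r was 0.785 over 7 mice (exact permutation, adjusted p = 0.364). The choroid plexus score was 1.20 in Tg(Dyrk1a) replicate 2, lowest in Fosb and Fosl2, and 1.16 in wild type replicate 5, highest in both. A cause of the relation was not tested.

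The other 20 pairs lay between -0.46 and 0.55 (permutation p adjusted over the 21 pairs 0.501 or above; Spearman 0.652 or above). Fos was at 0.55 with Fosb, 0.53 with Junb and 0.45 with Fosl2. Without Tg(Dyrk1a) replicate 2 and wild type replicate 5, the mice farthest from the Fos median, these values were 0.07, 0.37 and -0.05, so those for Fosb and Fosl2 rested on the 2 mice. Without the 3 mice high in choroid plexus markers they were -0.18, 0.42 and -0.21. All 4 negative values over the 10 mice involved Jun, which was at -0.43 with Fosb, -0.42 with Fosl2, -0.46 with Fosl1 and -0.09 with Fos. Without Tg(Dyrk1a) replicate 2 and wild type replicate 5 they were -0.05, -0.08, -0.82 and 0.47, and without the 3 choroid-high mice 0.06, -0.02, -0.82 and 0.56. The values of Jun with Fosb and Fosl2 thus rested on the end mice, and that with Fos turned sign. Jun and Junb were at 0.29 over the 10 mice and at 0.72 without the choroid-high mice. Tg(Dyrk1a) replicate 2 was the lowest of the 10 mice for 5 of the 7 members, Jun and Jund being the exceptions. Wild type replicate 5 was the highest for Fos, Fosb and Fosl2, and wild type replicate 4 for Jun and Junb.

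**Figure D3:**
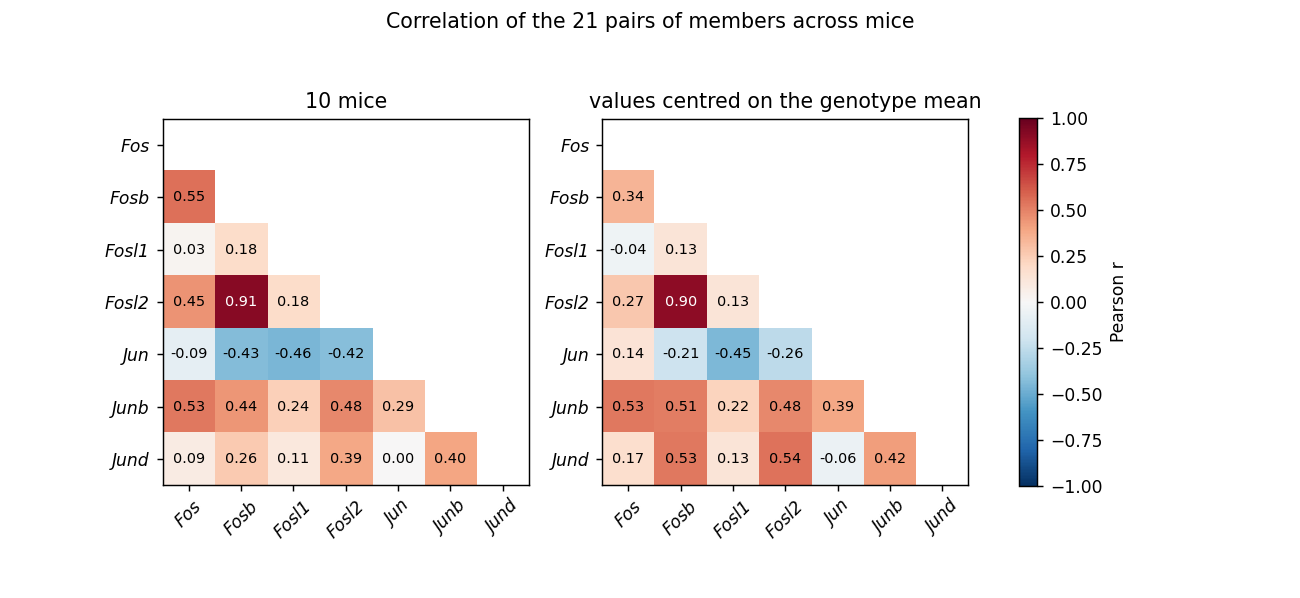
Pearson r of the 21 pairs of members over 10 mice (left) and after each value was centred on its genotype mean (right), on a colour scale from -1 to 1. Fosb and Fosl2 stand at 0.91 and 0.90, and the pairs of Jun with the Fos genes hold the negative values on the left, of which those with Fosb and Fosl2 rest on 2 mice.

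Dyrk1a itself split the mice into its 2 genotypes, so no correlation over all 10 mice is given for it. After centring on genotype the 7 members were at r between -0.27 and 0.52 with Dyrk1a, and none passed (exact permutation within genotypes, p adjusted over the 7 relations 0.492 or above).

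Fos was set against 5 other activity-induced genes. The closest was Nr4a1, an orphan nuclear receptor, with r = 0.746 (permutation p = 0.0152, adjusted over the 5 relations 0.0545) and rho = 0.806 (permutation p = 0.00725, adjusted 0.0362). Dusp1, a phosphatase that turns off MAP kinases, followed with r = 0.716 (permutation p adjusted 0.0545) and rho = 0.709 (adjusted 0.0505). Arc was at 0.61, Egr1 at 0.57 and Npas4 at 0.55. Without Tg(Dyrk1a) replicate 2 and wild type replicate 5, the mice farthest from the Fos median, Nr4a1 was at 0.49, Dusp1 at 0.52, Arc at 0.44, Egr1 at 0.38 and Npas4 at 0.22, so these relations rested in part on these 2 mice. Without the 3 choroid-high mice the values were 0.48, 0.53, 0.54, 0.50 and 0.28 in the same order. Centred on genotype, Nr4a1 was at 0.68 and Dusp1 at 0.66 (exact permutation within genotypes, adjusted p = 0.133 for both).

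**Figure D4:**
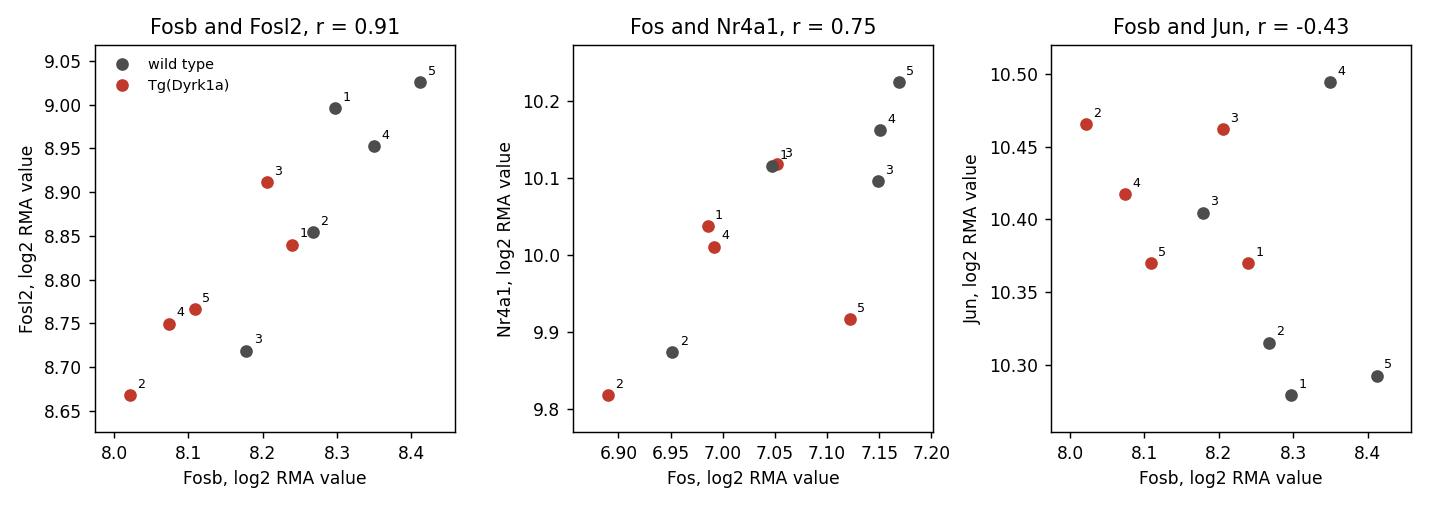
Log2 RMA values of Fosl2 against Fosb, Nr4a1 against Fos and Jun against Fosb, 1 numbered point per mouse, wild type in grey and Tg(Dyrk1a) in red. Fosb and Fosl2 line up within both genotypes at r = 0.91, Fos and Nr4a1 less tightly at 0.75, and Jun and Fosb at -0.43, a value that is -0.05 without Tg(Dyrk1a) replicate 2 and wild type replicate 5.

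Among 17193 other named genes, Fosl2 ranked 4 by its r with Fosb, and Fosb ranked 13 for Fosl2. The gene most like both was Sema4a, a transmembrane semaphorin, at r = 0.94 with Fosb and 0.95 with Fosl2 over 10 mice. Next to Fosb came Atoh8, a basic helix-loop-helix factor, at 0.92, and Kcnf1, a modulatory potassium channel subunit, at 0.92. Next to Fosl2 came Psd2 and Phf1, both at 0.94. Most like Fos were Gpank1 (0.90), the cAMP phosphodiesterase gene Pde4b (0.89) and the forkhead factor gene Foxp2 (0.88). By the same measure Nr4a1 ranked 61 for Fos, Dusp1 91 and Fosb 553. For every member the nearest gene reached r = 0.89 or more, so a value of this size with some gene was usual in these 10 arrays. The values are descriptions and were not tested.

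The nearest genes of the other members were no members of the family. They were Tmem270 (0.96), Prtn3 (0.96) and Slc46a2 (0.95) for Fosl1, Rab11fip5 (0.95), Glipr1 (0.94) and Slc27a2 (0.93) for Junb, and Hpf1 (0.97), Trim8 (0.95) and Pccb (0.95) for Jund. For Jun, D16Ertd472e (0.89), Prl7b1 (0.88) and the zinc transporter gene Slc30a5 (0.85) came first. Junb was at 0.75 with Dusp1, 0.69 with Npas4 and 0.65 with Arc, beside 0.53 with Fos, its highest value in the family, whereas Jund was at -0.22 with Arc and -0.31 with Egr1.

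Around the family, 5 lists of related genes were counted, and 0 genes of any list passed the same limma test (each gene named here had an adjusted p of at least 0.947). Of the 39 activity-induced genes 29 had lower and 10 higher means in Tg(Dyrk1a), with a median log2 fold change of -0.05 against 0.00199 over all genes, of which 48.3% had lower means. An unadjusted limma p under 0.05 was seen for 5 lower genes and 1 higher gene of the 39, where 1.94% of all transcript clusters were lower and 2.99% higher at that p. FCROS placed 7 of the 39 on its lower side, beside 2.11% of all transcript clusters. Egr2, a zinc finger factor, was at -0.23 ± 0.07 (SE; exact permutation p = 0.0238, n = 5 each), Egr1 at -0.12 ± 0.04 (SE; exact p = 0.0476) and Arc, which regulates synaptic receptor traffic, at -0.23 ± 0.09 (SE; exact p = 0.0556). All 5 Tg(Dyrk1a) mice lay below the wild-type mean for each of these 3 genes, as they did for Fosb. The study, which used these arrays among others, names Arc, Npas4, Fosb and Fos as immediate early genes with altered expression. By qRT-PCR it reports their downregulation in its Down syndrome mouse models. The direction of the list, and that of Fosb and Fos in the family, is thus not independent of the choice of genes.

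Other leucine zipper factors, some of which pair with FOS or JUN proteins, had 14 lower and 9 higher of 23 genes and a median of -0.02. The smallest p were those of Batf (-0.06 ± 0.04 SE), which pairs with JUN proteins in lymphocytes, Atf6 (0.08 ± 0.04 SE), a factor of the unfolded protein response, and Creb3 (0.07 ± 0.04 SE). No gene of this list had an unadjusted p under 0.05 with limma or was past the FCROS threshold.

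Upstream transcription factors and kinases that act on the Fos promoter or on JUN and FOS proteins stood near 0. Of the 16 factors and co-activators 11 had higher means, with a median of 0.01, and their extremes were -0.06 for Crebbp, the CREB binding acetyltransferase, and 0.07 for Elk1, a MAP kinase target, while Stat3 was at 0.06. Of the kinases 27 of 38 listed genes were measured here, 16 of them higher, with a median of 0.00341. Mapk14, the p38 alpha kinase, was at 0.08 ± 0.04 (SE; exact permutation p = 0.0556, n = 5 each). Araf, a RAF kinase, was at 0.06 ± 0.03 (SE; exact permutation p = 0.0397), with all 5 Tg(Dyrk1a) mice above the wild-type mean. Camkk2, which activates calmodulin kinases, was at -0.07 ± 0.04 (SE; exact permutation p = 0.127). None in either list had an unadjusted limma p under 0.05.

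Genes with known AP-1 regulation did not share a direction. Of 26 genes 15 had higher and 11 lower means, with a median of 0.00669, and an unadjusted limma p under 0.05 was seen for 3 higher genes and 1 lower gene, beside 2.99% and 1.94% of all transcript clusters. Pdyn, the prodynorphin gene, was at 0.19 ± 0.06 (SE; exact permutation p = 0.0238, n = 5 each) and Scg2, a secretogranin gene, at 0.12 ± 0.04 (SE; exact p = 0.0397), and for both all 5 Tg(Dyrk1a) mice exceeded the wild-type mean. Ccnd1, the cyclin D1 gene, was at -0.16 ± 0.06 (SE; exact p = 0.0635) and below it in 4 of 5.

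**Figure D5:**
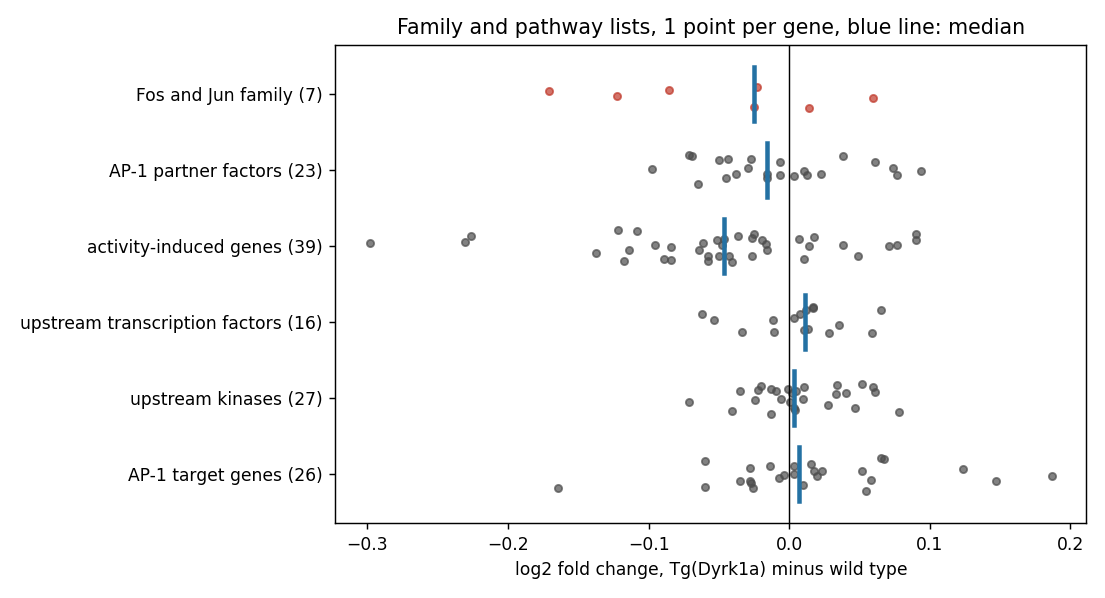
Along the horizontal axis stands the same log2 difference between Tg(Dyrk1a) and wild type of the 7 family members (red) and of the genes of 5 related lists (grey), 1 point per gene from the means of 5 mice per genotype, with a blue line at each median and the number of genes measured in parentheses. The family median is -0.03, that of the activity-induced genes -0.05, and the other 4 medians lie between -0.02 and 0.01.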

How the data were processed

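Hippocampal RNA of 5 Tg(Dyrk1a) and 5 wild-type mice was hybridised to Affymetrix Mouse Gene 1.0 ST arrays. The authors deposited log2 values after RMA, which corrects background, normalizes probes between arrays and summarises them per transcript cluster. Per the submitters' processing notes, RMA, limma and the mouse build mm10 were used, and the set of arrays normalized at once is not given in the sources used here. RMA compresses fold changes, above all of dim transcript clusters such as that of Fosl1. Scanner intensities were not used here, and the number of arrays limits the precision.

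Genes were named through the platform annotation and checked against RefSeq (GRCm38.p6), the source of the promoters. Of 35556 rows, 23410 annotated transcript clusters were tested with limma 3.58.1 in R 4.3.3 (lmFit, eBayes, no covariate), with Benjamini-Hochberg adjustment over all of them and a threshold of 0.05. Each gene is the transcript cluster with the highest mean. A two-sided exact permutation test was also run for single genes over the 252 assignments of the mice, whose smallest p is 0.00794. Correlations have permutation p from 100000 resamples, or exact p within genotypes or with under 10 mice, computed with numpy and scipy 1.17.1. FCROS was rewritten from its description, trimming 25% of the ranks from either end. The limma script was tested on simulated data.

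The members and lists were chosen with earlier results of these data known. Named genes were all members, the 3 with the smallest p of each pathway list (every called gene, had there been any), the 3 most like each member among named genes, Dyrk1a, and the 5 activity genes set against Fos. Other settings tried were median centring or quantile normalization, testing all rows or all but the dimmest 30%, array weights, robust estimation with a variance trend, a replicate block, averaging a gene's transcript clusters, marker scores as covariates, dropping the 3 mice whose choroid plexus score exceeded 0.5, and dropping each mouse. The sample titles do not say that replicate numbers pair the mice. Same-numbered mice deviated together at r between -0.29 and 0.28, which cannot exclude a pairing.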

Additional observations from a re-analysis of the deposited data

Results flagged for a closer look

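In 14 groups of 5 mice, 1 per member and genotype, 2 had a mouse far from the other 4, and chance flags about 1 in 20 groups. Both were in Junb. Tg(Dyrk1a) replicate 2 was the lowest of its genotype at 7.26, while the other 4 lay between 7.43 and 7.46, and its gap took 0.824 of the range. Wild type replicate 4 was the highest of its genotype at 7.62, while the other 4 lay between 7.37 and 7.41, and its gap took 0.832 of the range. The first mouse also had the highest choroid plexus score, 1.20, and the lowest score of the activity-induced genes, -0.07. The second had a choroid plexus score of 0.02 and the highest score of the activity-induced genes, 0.10. Across the 10 mice Junb was at r = -0.26 and rho = -0.30 with the choroid plexus score (permutation p = 0.475 and 0.407, adjusted over 42 relations 0.716 and 0.744), and at r = 0.36 without Tg(Dyrk1a) replicate 2 and wild type replicate 5.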

How the results depend on the processing

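None of the 7 members passed limma under any of the 20 alternatives, while FCROS placed 2 past its threshold. Fos, Fosb and Fosl2 stayed lower in Tg(Dyrk1a) throughout, at -0.12 to -0.02, -0.20 to -0.09 and -0.17 to -0.04 on the log2 scale. The smaller differences turned sign under some settings, and the cause was not tested. With the marker scores as covariates Fosl1 was at 0.0430, Jun at -0.0184 and Jund at -0.0447. Without the 3 mice high in choroid plexus markers Junb was at 0.00306. With 1 mouse left out at a time Fosl1 ran from -0.0594 to 0.0181, Junb from -0.0407 to 0.0225 and Jund from -0.00872 to 0.0369. Jun ran from 0.04 to 0.09, the highest without wild type replicate 4. The replicate block is a paired fit on numbers not known to pair the mice. With it 0 members passed, the smallest adjusted p was 0.946, and Fos and Fosb had an unadjusted limma p under 0.05 (0.0331 and 0.0125). Of the 21 pairs, 0 covaried past the threshold without the 3 mice high in choroid plexus markers, where 7 mice were left, and 0 to 1 with 1 mouse left out. Unadjusted limma p under 0.05 also came up for Fos without wild type replicate 2 (0.0288) or Tg(Dyrk1a) replicate 5 (0.0494) and for Fosl2 with quantile normalization (0.0368), without Tg(Dyrk1a) replicate 3 (0.0295) or without wild type replicate 3 (0.00769), for Jun without wild type replicate 4 (0.0337), and for no member with the marker scores as covariates or without the 3 choroid-high mice. In the lists 0 genes passed with the mean of a gene's transcript clusters or without those 3 mice.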
